A study of Mus musculus with 18 samples.

Results

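Short exonic circles are circular RNAs made of spliced exons of a known gene with a spliced length of at most 500 bases. They were taken from the deposited circle table as the circles annotated as exonic that met this limit, without use of any expression value. The class held 1491 of 7391 circles (20.2%) and 20257 counts (20.5% of all circle counts), from 1156 host genes. The other circles of that annotation, those over 500 bases, numbered 4314 with 62979 counts from 2015 hosts. Circles of a single exon carry a separate annotation (271 circles of any length, 4958 counts). They are in neither class, and exonic circles here always means those annotated as exonic. RNA was sequenced from whole testis of adult C57BL/6 mice that were either wild type or carried a Taf7l knock-in allele (spelled konckin in the labels), with 3 libraries of each genotype. The allele itself is not described in the sample labels, and the series title concerns a missense change in the X-linked TAF7L gene. No label says that the libraries of a genotype are from different mice, and p-values therefore reflect the spread among these libraries only. The sorted spermatocyte and spermatid samples of the series were not analysed here.

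A circular RNA forms when the splicing machinery joins the end of an exon to the start of the same or an earlier exon, a reaction called back-splicing. The product has no free ends, so it resists exonucleases and can build up in cells that no longer divide, and testis is known for a large number of such RNAs. TAF7L resembles TAF7 and takes its place in germ cells as part of TFIID, the complex that recognises core promoters and recruits RNA polymerase II. Circles and linear mRNAs of a gene start from the same promoters, so the mRNA of each host is given beside its circles.

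The sequences printed here are the promoters of Tasp1, Bbs9 and Rfx3, the hosts with the most counts, because a promoter is the DNA on which TFIID assembles. Each runs from 250 bases before to 50 bases after a transcription start in RefSeq, on the strand of the gene, in build GRCm38.p6 (mm10). A gene can have several starts (32851 windows for 27025 genes), and 1 window is shown per host. The Rfx3 gene extends to position 28014669, so the window shown for it lies inside the gene and not at its outermost start. The outer limits of Tasp1 and Bbs9, at positions 140066847 and 22475559, lie within their windows, and the starts used there are also not the outermost. The windows lie at chr2:140066756-140067055 on the minus strand for Tasp1, at chr9:22475465-22475764 on the plus strand for Bbs9 and at chr19:28011117-28011416 on the minus strand for Rfx3. Capitals mark matches on either strand to CCAAT, the CCAAT box, and to GGGCGG, the GC box bound by Sp1.
Tasp1: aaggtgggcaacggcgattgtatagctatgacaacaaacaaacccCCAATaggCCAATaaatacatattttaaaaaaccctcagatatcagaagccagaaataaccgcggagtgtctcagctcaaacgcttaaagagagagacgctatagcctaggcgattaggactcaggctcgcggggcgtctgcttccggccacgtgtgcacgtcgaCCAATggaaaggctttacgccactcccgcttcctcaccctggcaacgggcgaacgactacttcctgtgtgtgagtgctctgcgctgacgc
Bbs9: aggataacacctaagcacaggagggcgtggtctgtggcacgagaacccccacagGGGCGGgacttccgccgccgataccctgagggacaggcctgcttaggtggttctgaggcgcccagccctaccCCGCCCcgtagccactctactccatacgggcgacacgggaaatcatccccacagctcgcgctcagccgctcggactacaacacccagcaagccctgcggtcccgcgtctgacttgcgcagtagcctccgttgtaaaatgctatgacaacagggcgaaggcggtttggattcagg
Rfx3: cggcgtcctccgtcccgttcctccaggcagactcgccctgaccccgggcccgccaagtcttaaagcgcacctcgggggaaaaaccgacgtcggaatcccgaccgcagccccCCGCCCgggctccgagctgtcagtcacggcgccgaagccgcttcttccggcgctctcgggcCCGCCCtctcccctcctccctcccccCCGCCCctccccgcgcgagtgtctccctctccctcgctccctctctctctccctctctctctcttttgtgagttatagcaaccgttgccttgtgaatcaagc
The Tasp1 window held 3 CCAAT boxes and no GC box, the Bbs9 window 2 GC boxes and the Rfx3 window 3 GC boxes. None of the 3 held the TATA box letters TATAAA or the cAMP response element TGACGTCA. Of 32851 promoter windows of this length in the table, 37.4% held a CCAAT box, 35.7% a GC box, 13.6% a TATA box and 1.79% a cAMP response element, on either strand, each motif counted on its own. A comparison of motif shares between all hosts and other genes is not given here, and it could have covered only the 905 of the 1156 hosts (78.3%) with a promoter in the table. These matches describe letters in the windows and were not tied to any measured difference.

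The 6 libraries held 14381 to 20127 circle counts and 17431309 to 21446420 mRNA counts. Taf7l mRNA itself had 507, 551 and 531 counts in wild type and 472, 525 and 581 in knock-in (log2 fold change -0.11 ± 0.08 SE, adjusted p = 0.632 by the edgeR quasi-likelihood test over all mRNA genes), which does not check the labels, since a knock-in need not change the amount of RNA. Germ-cell markers were well detected, with the summed FPKM of 9 spermatid markers between 10800 and 13000 in every library. Crisp1, an epididymal gene, had 225 counts in wild type 2 and 173 in knock-in 1, against 1 to 3 in the other 4 libraries, so 1 library of each genotype carried this signal. In bulk tissue, fewer cells of a type and less RNA per cell cannot be told apart.

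Short exonic circles were mostly of low count, and a few hosts carried a large part of the class. The median circle had 6 counts over the 6 libraries, as did the median exonic circle over 500 bases. Of the 1491 circles, 258 (17.3%) were found in all 6 libraries and 398 (26.7%) in a single library, against 15.9% and 25.6% of the longer exonic circles. At least 100 counts were reached by 24 circles and at least 30 by 126. The 10 leading circles held 16.8% of the counts of the class and the 12 leading hosts 20.1%, whereas 743 hosts (64.3%) had 10 counts or fewer each. A single short circle came from 928 hosts, and 228 hosts gave several, up to 6 from Nbas, a gene of Golgi-to-ER transport.

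Spliced lengths ran from 68 to 500 bases with a median of 381, and those of the longer class had a median of 1002. The limit falls at the peak of the length distribution rather than in a gap, so circles on both sides of it are alike in size. Of circles with at least 30 counts, Gas2 (499 bases, 80 counts) and Scamp1 (497 bases, 70 counts) lay just inside the limit. Catsperg2 (42 counts) and Catsperg1 (40 counts), both of 501 bases, lay just outside. The latter genes are near copies of each other, so the split of reads between them is uncertain. The shortest circle with at least 30 counts came from Bcl2l13, a mitochondrial protein of the BCL2 family, with 214 bases.

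**Figure D1:**
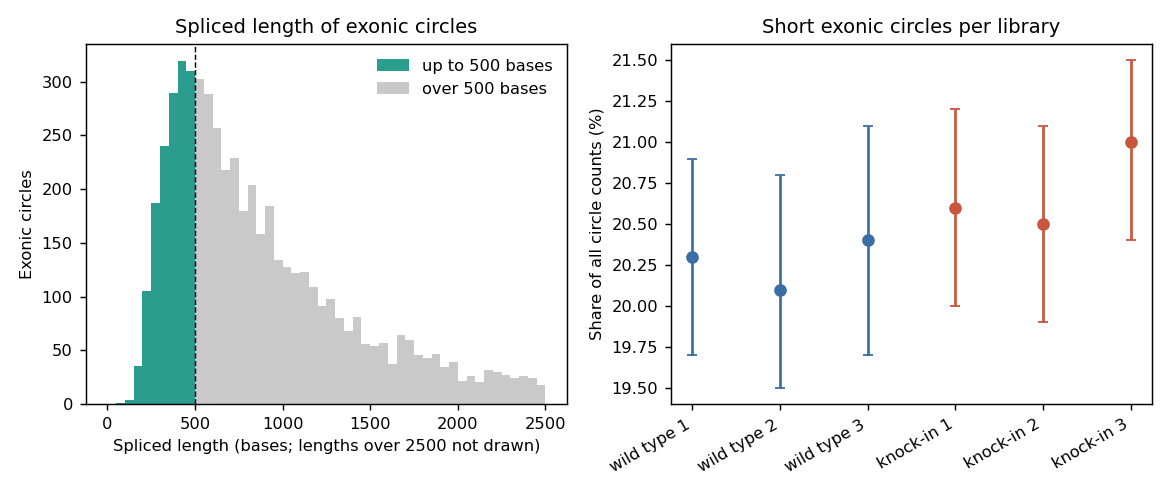
Left, the number of exonic circles by spliced length in steps of 50 bases, with the limit of 500 bases as a dashed line; right, the share of all circle counts in short exonic circles in each library, with its 95% Wilson interval. The number of circles peaks near the limit, and the shares run from 20.1 to 20.4% in wild type and from 20.5 to 21.0% in knock-in, with overlapping intervals.

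On the genome the short circles spanned a median of 5247 bases from first to last exon base, with a range of 240 to 98563, against 18010 for the longer class. Their start lay at a median of 46.3% of the way along the host gene (interquartile range 26.9 to 66.5%, n = 1462), while longer circles started at 36.4% (20.0 to 56.4%, n = 4275). A spliced length divisible by 3, which keeps a reading frame around the circle, was found for 541 short circles (36.3%) and for 33.9% of longer ones. An identifier from the circBase catalogue was given to 99 short circles (6.64%) and to 119 longer ones (2.76%). Of the short circles, 741 (49.7%) shared 1 of their ends with another circle of the table, so such circles are not independent of each other. A RefSeq miRNA hairpin lay inside the genomic span of 6 short circles (0.402%) and 45 longer ones (1.04%). These are descriptions without a test.

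The leading host was Tasp1, which encodes taspase 1, the protease that cleaves MLL proteins and the general factor TFIIA. Its 5 short circles together had 155, 97 and 129 counts in wild type and 145, 135 and 141 in knock-in. In counts per 1000000 circle counts of the library (RPM) this was 8220 ± 1270 (SD, n = 3) and 8070 ± 989 (n = 3), and the genotypes overlapped. The log2 fold change was -0.03 ± 0.16 SE, with a 95% interval of -0.33 to 0.28 and an adjusted p of 0.985 in the edgeR fit over all host sums.

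A pair of circles made up nearly all of the Tasp1 signal. The larger, chr2:140008699-140057499 (mm10, minus strand, 471 bases), had 502 counts, and the smaller, chr2:140042094-140057499 (350 bases), had 282. Both end at position 140057499, on the minus strand the 5′ end of the circle, and differ in the exon where the circle closes. The larger circle held 61.3, 58.8 and 69.8% of the Tasp1 short-circle counts in wild type and 63.4, 59.3 and 62.4% in knock-in, so their ratio overlapped between the genotypes. The other 3 Tasp1 circles had 13, 3 and 2 counts and shared the position 139951579. Short circles were 84.2% of all Tasp1 circle counts, and Tasp1 mRNA stood at 18.0 ± 2.55 FPKM (SD, n = 3) in wild type and 18.4 ± 2.20 in knock-in.

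Bbs9 came next, a subunit of the BBSome, the complex that moves cargo into and out of cilia. Its short circles had 128, 104 and 80 counts in wild type and 151, 149 and 171 in knock-in. The corresponding levels were 7400, 7230 and 5550 RPM against 9330, 9110 and 8500 RPM, so every knock-in library lay above every wild-type library. The log2 fold change was 0.42 ± 0.16 SE (95% interval 0.11 to 0.73), with an unadjusted p of 0.00788 by the edgeR quasi-likelihood test and an adjusted p of 0.975, which did not pass. For Bbs9 mRNA the edgeR log2 fold change was 0.04 ± 0.05 SE (adjusted p = 0.824).

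Most of this signal, 87.7%, came from 1 circle of 477 bases at chr9:22643745-22659145 (mm10, plus strand), with 113, 95 and 75 counts in wild type and 136, 116 and 152 in knock-in. Its levels did not overlap between the genotypes either, at 6530, 6610 and 5200 RPM against 8400, 7090 and 7550 RPM. A second Bbs9 circle of 243 bases, chr9:22887581-22887996, had 11, 8 and 4 counts in wild type and 12, 30 and 16 in knock-in (log2 fold change 1.18 ± 0.42 SE, edgeR adjusted p = 0.979). Its highest library was knock-in 2, and without that library the log2 fold change was 0.70. Bbs9 also gave 1243 counts of other circles, so short circles were 38.6% of its circle counts. These other circles had 221, 162 and 140 counts in wild type and 215, 220 and 285 in knock-in. Relative to the circle counts of each library they were also higher in every knock-in library, so the direction was not particular to the short circles.

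Rfx3, a transcription factor that drives ciliary genes, had 82, 59 and 85 counts in wild type and 98, 72 and 109 in knock-in. The levels of 4910 ± 910 and 5290 ± 833 RPM (SD, n = 3 each) overlapped, with a log2 fold change of 0.11 ± 0.18 SE. A circle of 482 bases at chr19:27849711-27900903 (minus strand) held 96.6% of these counts.

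**Figure D2:**
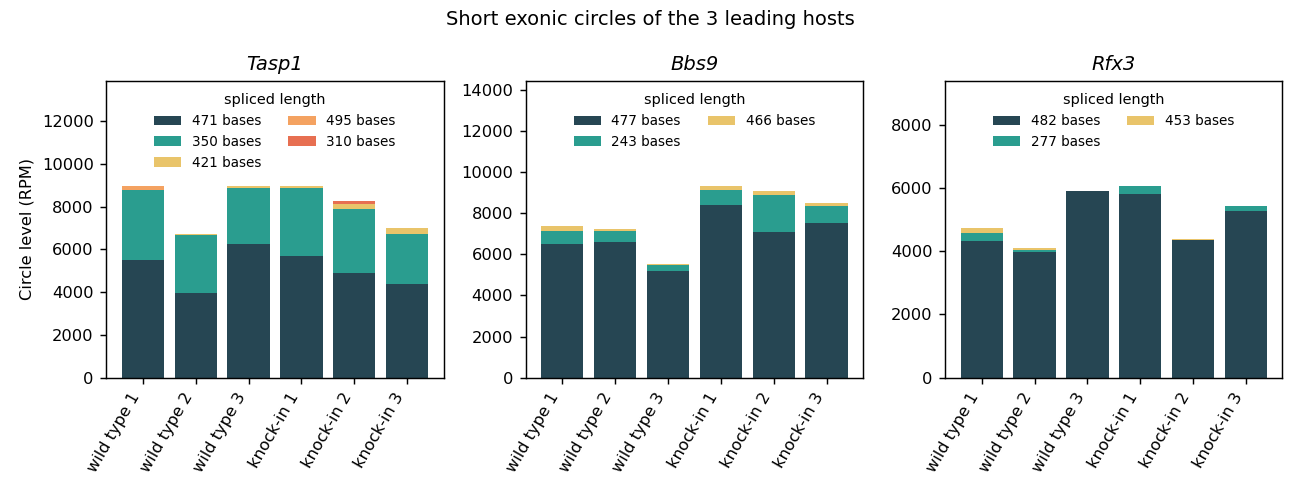
Stacked bars give the level in RPM of each short exonic circle of Tasp1, Bbs9 and Rfx3 in each of the 6 libraries, coloured by spliced length. In Tasp1 the circles of 471 and 350 bases split the signal, while 1 circle of 477 bases in Bbs9 and 1 of 482 bases in Rfx3 carries most of it.

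The other 9 of the 12 leading hosts had 161 to 336 counts, and in none did the genotypes differ past the test. Dock3, an activator of the GTPase Rac, had 41, 48 and 55 counts in wild type and 52, 51 and 89 in knock-in, with knock-in 3 highest. Among genes of meiosis, Kctd19 had 59, 50 and 39 counts in wild type and 33, 48 and 49 in knock-in (log2 fold change -0.37 ± 0.23 SE), with overlap. Espl1, which encodes separase, the protease that opens cohesin rings, had 39, 24 and 35 against 44, 35 and 31, at 2120 ± 398 and 2130 ± 589 RPM (SD, n = 3 each).

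Among regulators of transcription, Elf2, an ETS-domain factor, was at 2600, 2710 and 2980 RPM in wild type and 2100, 2450 and 2340 RPM in knock-in. These levels did not overlap, and the log2 fold change, -0.26 ± 0.24 SE, did not pass in edgeR (adjusted p = 0.975). Sfmbt2, a Polycomb-group protein, had 26, 34 and 28 counts in wild type against 40, 23 and 44 in knock-in, and the nuclear receptor coactivator Ncoa2 had 30, 29 and 14 against 19, 38 and 35. Both overlapped between the genotypes.

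The last 3 hosts complete the leading 12. Fam186b had 38, 23 and 23 counts in wild type and 37, 42 and 36 in knock-in, Ccdc148 had 33, 38 and 33 against 25, 34 and 33, and Spata17, a spermatogenesis-associated gene, had 18, 29 and 33 against 21, 37 and 23. All 3 overlapped on the RPM scale.

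**Figure D3:**
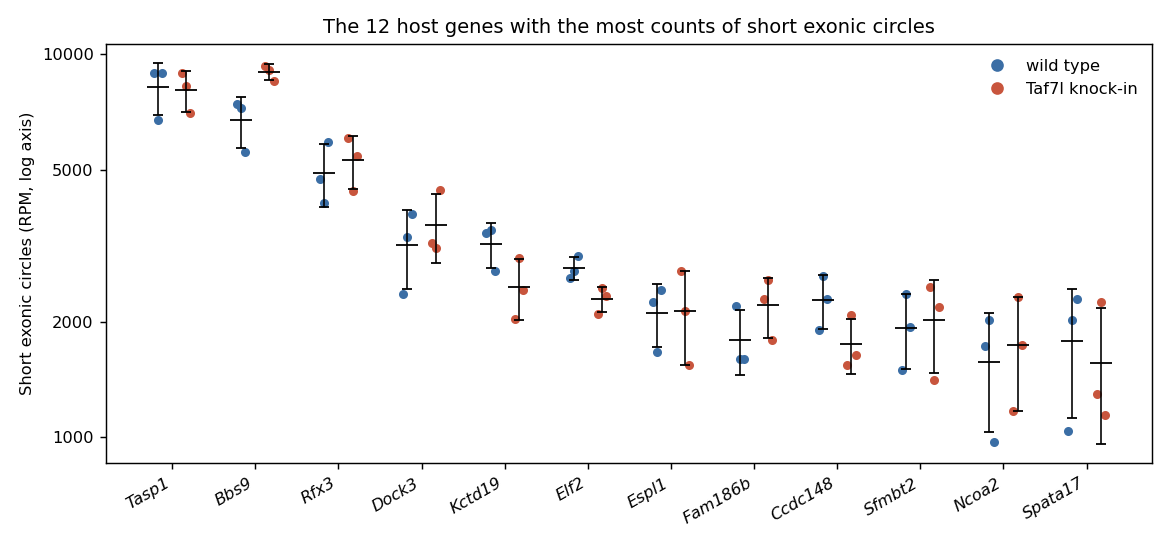
Level of short exonic circles in RPM on a log axis for the 12 host genes with the most counts, with 1 point per library, and a black bar and whiskers for the mean and SD of 3 libraries. Bbs9 (higher in knock-in) and Elf2 (lower) are the hosts whose genotypes do not overlap, and neither passed the test.

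No short exonic circle differed between knock-in and wild type past the threshold. In the edgeR fit over all circles found in at least 3 of the 6 libraries, 814 of the 1491 members were tested and 0 were called at an adjusted p under 0.05, as were 0 of all 3887 circles (0.0%). An unadjusted p under 0.05 was reached by 43 members (5.28%) against 4.91% of all tested circles. DESeq2 called 0 members, with 18 (2.21%) at an unadjusted p under 0.05, beside 1.8% of all tested circles. The 2 genotypes did not overlap for 94 members (11.5%) against 10.7% of all tested circles, which is near the background. Of these members 50 were higher in knock-in, where 5.69% of all tested circles were, and 44 were lower, against 4.99% of all. The median log2 fold change was 0.10 for members and 0.03 for all circles, and the median standard error of a member was 1.33, so the intervals of most single circles were several-fold wide. In the authors' deposited table, 0 members had an adjusted p under 0.05 and 34 (2.28%) had an unadjusted p under 0.05, beside 1.93% of all circles.

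Summing the short circles of each host gave the same count of calls. Of 1156 host sums, 675 were tested and 0 were called, as were 0.0% of all 2275 rows of that edgeR fit. An unadjusted p under 0.05 was found for 30 host sums (4.44%) against 4.57% of all rows, and DESeq2 found 11 (1.63%) against 2.2% and called 0. The genotypes did not overlap for 71 host sums (10.5%) against 10.7% of all rows. In knock-in 36 were higher and 35 lower, beside 5.67% and 5.05% of all rows.

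The host sums with the smallest p-values can be named as the nearest to a difference, although none passed. Of those higher in knock-in, Rab28, a small GTPase found at cilia, had 5, 8 and 3 counts in wild type and 15, 13 and 24 in knock-in. Its levels did not overlap, at 351 ± 182 against 971 ± 202 RPM (SD, n = 3 each). This gave a log2 fold change of 1.48 ± 0.50 SE, with an unadjusted p of 0.00311 by the edgeR quasi-likelihood test and an adjusted p of 0.975. Rab28 mRNA had a log2 fold change of -0.04 ± 0.10 SE. Bbs9 was the next. Phyhipl had 0 counts in all 3 wild-type libraries and 4, 1 and 6 in knock-in, and Ralgps2 had 0 in wild type and 1, 2 and 6 in knock-in, amounts too small for a fold.

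Of those lower in knock-in, Catsperb, an accessory subunit of the sperm calcium channel CatSper, was at 2080, 1600 and 2360 RPM in wild type and 1240, 917 and 1190 RPM in knock-in. Every knock-in library lay below every wild-type library, and the log2 fold change was -0.84 ± 0.31 SE. The unadjusted p by the edgeR quasi-likelihood test was 0.006 and the adjusted p 0.975. Catsperb mRNA had a log2 fold change of -0.25 ± 0.10 SE (adjusted p = 0.346). Shcbp1l, a gene of male meiosis, had 26, 21 and 17 counts in wild type and 14, 9 and 13 in knock-in (log2 fold change -1.0 ± 0.38 SE, edgeR adjusted p = 0.975), also without overlap. Efcab11 had 12, 4 and 7 counts against 1, 3 and 1, and Pih1d2, of the PIH family of dynein assembly proteins, 9, 4 and 6 against 1, 2 and 1.

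**Figure D4:**
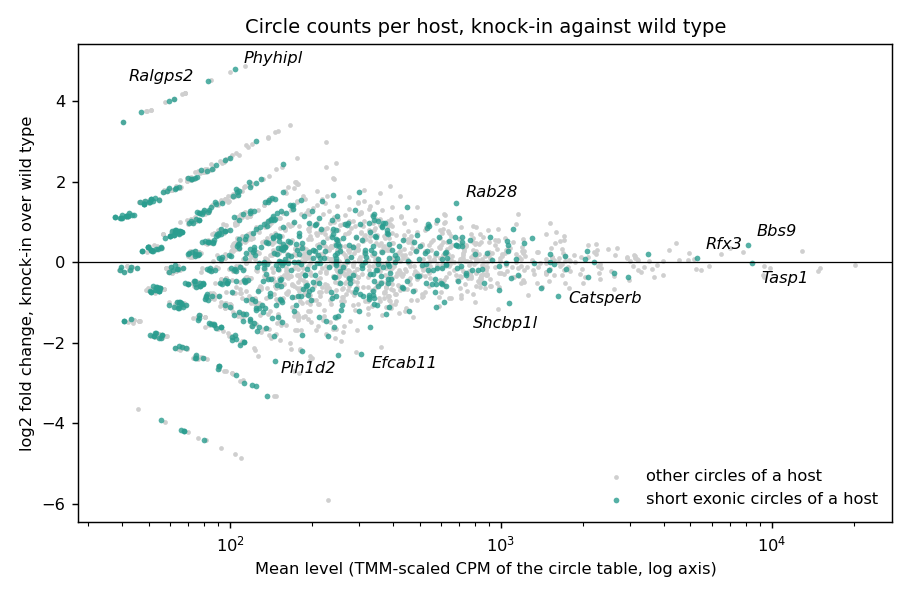
Log2 fold change of knock-in over wild type against mean level on a log axis (CPM, counts per 1000000 scaled by TMM, the trimmed mean normalisation of edgeR) for all 2275 tested sums of circles per host, with the 675 sums of short exonic circles in green. The spread widens toward low counts, the stripes at the left are sums of few counts, and no point passed the test at an adjusted p under 0.05.

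The class as a whole took 20.3, 20.1 and 20.4% of all circle counts in wild type and 20.6, 20.5 and 21.0% in knock-in. The means were 20.3 ± 0.15% and 20.7 ± 0.246% (SD, n = 3 each), a difference of 0.412 percentage points, and the genotypes did not overlap. The smallest p that an exact permutation test of 3 against 3 can give is 0.1, so that test could not pass, and no other was run. The 95% Wilson interval of wild type 1 was 19.7 to 20.9% and that of knock-in 3 was 20.4 to 21.5%. These intervals overlap, which is not a test of a difference. With a limit of 400 bases the difference was 0.19 points and the genotypes overlapped, and with a limit of 600 bases it was 0.936 points. The 7 markers of peritubular myoid cells, the contractile cells around the tubules, summed to 308 to 328 FPKM in wild type and 335 to 350 in knock-in, also without overlap. None of these markers was a host and 0 were called by edgeR (4 at an unadjusted p under 0.05, 2 called by DESeq2), and their part in the class share was not tested. The shift was not particular to these markers, since FPKM sums of some gene lists did not overlap either. The meiotic prophase list summed to 4420 to 4570 FPKM in wild type and 4170 to 4410 in knock-in. Sums of the lists of basal factors and core spliceosome genes also did not overlap, as given below. The part of these lists in the class share was not tested.

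Set against the linear RNA, the class had 187, 156 and 169 counts per 1000000 mRNA counts in wild type and 179, 178 and 197 in knock-in, at 171 ± 15.8 and 184 ± 10.7 (SD, n = 3 each). These values overlapped. The mean spliced length weighted by counts was 397 ± 2.8 bases in wild type and 396 ± 2.02 in knock-in, also with overlap.

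More different short circles were found in knock-in libraries at equal depth. In 2892 counts, the smallest class total, the expected number of circles was 732, 727 and 722 in wild type and 756, 754 and 783 in knock-in. The means of 726.9 ± 5.11 and 764.3 ± 15.8 (SD, n = 3 each) differ by 5.15% and did not overlap. The same measure did not overlap in exonic circles over 500 bases (3.90% more in knock-in) or in all circles (4.21%), so it was not particular to short circles. Among circles found in at least 3 libraries the difference was 7.8 circles and the genotypes overlapped.

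X-linked hosts gave little of the class. They held 17 of the 1491 circles (1.14%) and 82 counts, beside 0.672% of the longer exonic circles and 0.934% of all circles, so a low share was not particular to short circles. Of the tested mRNA genes 4.35% lie on the X chromosome, which is silenced in male germ cells during meiosis. The X-linked share of class counts was 0.455, 0.553 and 0.476% in wild type and 0.33, 0.239 and 0.403% in knock-in, without overlap. These shares rest on 16, 16 and 14 counts against 11, 8 and 17, and the 95% Wilson intervals overlap, at 0.28 to 0.738% for wild type 1 and 0.252 to 0.644% for knock-in 3. The genotypes overlapped when the limit was 400 bases and when only circles found in at least 3 libraries were kept. Tex11, an X-linked meiotic gene, had a circle with 3, 2 and 1 counts in wild type and 0 in all knock-in libraries, which is too few for a fold.

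Hosts of short circles were expressed genes, but among these hosts the level of the mRNA said little about the counts of short circles. The 1121 hosts in the mRNA table had a median of 13.8 FPKM (interquartile range 5.43 to 34.1), against 5.49 FPKM for all 15787 tested genes. Across 1120 hosts, Spearman's rho between the class counts of a host and its FPKM was 0.09 and Pearson's r of the log values was 0.09, over the same 6 libraries and with no test, since hosts are not replicates. Only genes with a short circle entered, and the longer circles of a host were left out. With 64.3% of hosts at 10 counts or fewer, counting noise can also lower a correlation. The value therefore does not describe all genes or all circles of a host. The 27 hosts with at least 100 counts that were in the mRNA table ran from 0.777 to 272 FPKM, and 7 of them were under 5 FPKM.

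Single hosts show the range. Ccdc148 had 2020 RPM of short circles with 0.883 FPKM of mRNA, Dock3 had 3380 RPM with 2.30 FPKM, and Lyst, a regulator of lysosome size chosen here after its values were seen, had 1060 RPM with 0.777 FPKM. At the other end, Dnah8, a heavy chain of the outer dynein arm of the sperm tail, had 1020 RPM with 272 FPKM and Kctd19 had 2830 RPM with 191 FPKM. Of the 1000 most abundant mRNA genes, 105 were hosts (10.5%), against 7.07% of all tested genes.

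**Figure D5:**
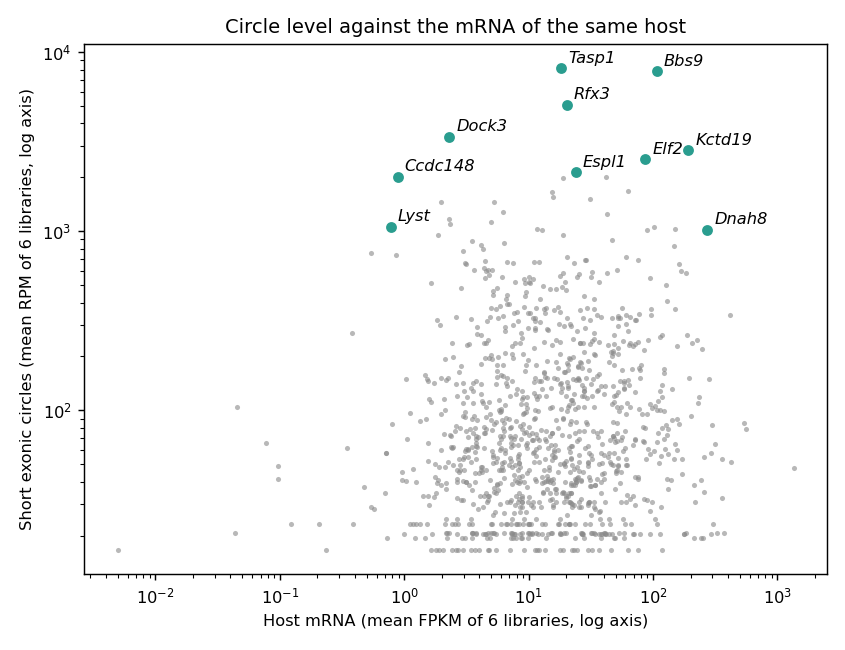
Each point is a host gene, with the mean FPKM of its mRNA against the mean RPM of its short exonic circles over 6 libraries, both on log axes. The points form a broad cloud with a rank correlation of 0.09, and Ccdc148 and Lyst reach the circle level of Dnah8 or more at under 1/100 of its FPKM.

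The mRNA of 9 hosts differed between the genotypes among 1116 tested (0.806%), which is near the background of 0.982% of all tested genes. Of them 7 were higher in knock-in and 2 lower, against 0.88% and 0.101% of all tested genes. Smarcc2, a subunit of SWI/SNF remodelling complexes, had 1754, 1694 and 1723 mRNA counts in wild type and 2218, 2476 and 3032 in knock-in (log2 fold change 0.47 ± 0.07 SE, edgeR adjusted p = 0.0206). The others were Golgb1, Dot1l, Rsph1, Thap4, Cfap69 and Hirip3, with log2 fold changes of 0.35 to 0.54. Lower were Tcp1, a subunit of the TRiC chaperonin, with 14816, 14584 and 13459 counts against 10272, 8517 and 12227 (log2 fold change -0.57 ± 0.09 SE, adjusted p = 0.0268), and Arih1, a ubiquitin ligase (-0.42 ± 0.08 SE). Each of these hosts had only 2 to 47 counts of short circles, and none of the 7 circle sums tested passed. Golgb1, with 4 counts, and Rsph1, with 2, were not tested. Tcp1 circles had 5, 6 and 4 counts in wild type and 1, 2 and 3 in knock-in. On all 6 libraries 173 hosts (15.5%) had an unadjusted p under 0.05 by edgeR, against 12.9% of all tested genes. Leaving out wild type 2, wild type 3 or knock-in 3 left 0 host mRNAs called. By contrast, DESeq2 on all 6 libraries called 33 (2.96%), beside 2.91% of all tested genes.

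By function, flagellum and cilium genes gave the most counts of the lists examined. Of 59 such genes 23 were hosts, with 1223 counts (6.04% of the class), of which Bbs9 alone had 783. The list had 196, 150 and 148 counts in wild type and 213, 221 and 295 in knock-in, and 0 of its 16 tested host sums were called by edgeR or DESeq2, with 1 at an unadjusted p under 0.05 in each. Dnah8 had 5 short circles with 16, 8 and 15 counts in wild type and 13, 8 and 46 in knock-in, high in knock-in 3 alone. Hydin, a protein of the central pair of the axoneme, had 75 counts at 0.743 ± 0.237 FPKM in wild type and 0.963 ± 0.436 in knock-in (SD, n = 3 each).

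Ubiquitin ligases and deubiquitinases had 22 hosts among 71 genes and 389 counts, and centrosome, spindle and cytoskeleton genes had 12 hosts among 41 and 301 counts, led by the retrograde ciliary motor Dync2h1 with 103. Chromatin regulators had 19 hosts among 78 genes with 36, 40 and 44 counts in wild type and 27, 21 and 27 in knock-in. Their leading host was Chd1, a nucleosome remodeller, with 13, 8 and 8 counts against 3, 4 and 7. Its log2 fold change of -1.22 ± 0.62 SE did not pass (edgeR adjusted p = 0.975), and of the 8 tested host sums of the list edgeR and DESeq2 called 0, with 1 and 0 at an unadjusted p under 0.05.

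The lists of late spermatogenesis and meiosis held 0.207% and 0.459% of the counts of the class. Of 40 spermatid genes 3 were hosts with 42 counts, led by the transcription factor Crem with 26, and of 43 genes of meiotic prophase 11 were hosts with 93 counts, led by Tdrd1 with 27. Protamine and transition protein genes were not among the hosts. As mRNA, 5 of the 40 spermatid genes were called by edgeR, all higher in knock-in (Prm2, Smcp, H2bl1, Odf3 and Spaca4). DESeq2 called 11 of the 40. Of all tested genes edgeR called 0.982% and DESeq2 2.91%. Of 45 genes known in mammals for abundant circles 12 were hosts, with 277 counts, led by Epb41l5 (103 counts), Tulp4 (53) and Pan3 (34). In Tulp4 short circles were only 3.58% of its circle counts. As sums in RPM, 4 of the 11 lists did not overlap between the genotypes. The flagellum list, the known circle hosts and the regulators of circle formation, of which Qk was the only host, were higher in knock-in, and the chromatin regulators were lower. Bbs9 held 783 of the 1223 counts of the flagellum list, and on the RPM scale the rest of that list overlapped. No test was run on these sums and no background of other gene lists was made, so 4 of 11 cannot be set against an expected share. Of single host sums 10.5% did not overlap, but a list can add several hosts, so this share is not a background for lists. No marker list of Sertoli, Leydig, peritubular myoid, endothelial, blood or epididymal cells contained a host, and of the spermatogonial markers Dmrt1 was a host with 34 counts. In all of these lists together edgeR and DESeq2 called 0 host sums, and no list had more than 1 at an unadjusted p under 0.05 by either.

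Genes that act on circles were examined in the mRNA fit, in which 0.982% of all genes were called. Of 36 tested regulators of circle formation and splicing, 1 was called, Hnrnpm, with 1057, 1115 and 970 counts in wild type and 1347, 1403 and 1486 in knock-in (log2 fold change 0.33 ± 0.06 SE, edgeR adjusted p = 0.0442). Of 27 core spliceosome genes, 30 genes of circle export, decay and recognition, and 26 genes of TFIID and related basal factors, 0 were called by edgeR, with 7, 3 and 4 at an unadjusted p under 0.05, where 12.9% of all genes were. DESeq2 called 3, 0 and 0 of them, where it called 2.91% of all genes. The median log2 fold changes were 0.04, 0.03 and -0.01, against 0.00 for all genes. In summed FPKM the core spliceosome genes stood at 777 to 778 in wild type and 784 to 845 in knock-in, without overlap. The TFIID and basal factor genes stood at 1360 to 1380 in wild type and 1240 to 1340 in knock-in, also without overlap. No test was run on these sums. Adjusted p was 0.954 for Prpf8 and 0.697 for Taf9 in the same edgeR fit.

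Qk, which encodes the RNA-binding protein Quaking, known to promote back-splicing, was itself a host. Its circle had 16, 15 and 15 counts in wild type and 21, 21 and 39 in knock-in, at 925, 1040 and 1040 RPM against 1300, 1280 and 1940 RPM, without overlap. The log2 fold change was 0.61 ± 0.34 SE (95% interval -0.06 to 1.27, edgeR adjusted p = 0.975). Without knock-in 3 it was 0.34. Qk mRNA counts had a log2 fold change of -0.05 ± 0.05 SE, whereas the authors' FPKM of Qk was 38.5 ± 2.22 in wild type and 46.8 ± 3.23 in knock-in (SD, n = 3 each), so the deposited count and FPKM of this gene differ in direction. Of the TFIID list, Taf15 had 4 counts of short circles and Gtf2a1l, a germ-cell form of TFIIA, had 2, too few for a comparison.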

How the data were processed

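RNA was measured in 6 whole-testis libraries, 3 wild type and 3 Taf7l knock-in, with Trizol extraction and a stranded total RNA kit per the labels' protocols. The authors deposited raw counts and RPM for each circle, and raw counts and FPKM for each mRNA gene, per the file headers. RPM is per 1000000 circle counts of the library. The build is mm10 per the submitters' processing notes. Not given in the sources used here are the circle caller, the handling of strand and the minimum for listing a circle. Every listed circle had at least 2 counts. The noncoding table was not used. The members and gene lists were chosen with earlier results of these data known.

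Counts per circle, per host and class, and per mRNA gene were each tested over the whole table with edgeR 4.0.16 in R 4.3.3 (TMM, quasi-likelihood test, two-sided, Benjamini-Hochberg adjustment, called at an adjusted p under 0.05). Circle and host rows had to be above 0 in at least 3 libraries, and mRNA genes had to pass filterByExpr. DESeq2 1.42.0, RLE scaling, scaling to the mRNA, other filters, length limits of 400 and 600 bases, a replicate block and leaving out each library were alternatives. The fits were also run on simulated data, in which those of circles and host sums recovered few or none of the changes put in. The absence of calls among circles and host sums therefore does not show an absence of differences. Biological coefficients of variation were 43.3% for circles, 33.8% for host sums and 11.1% for mRNA. Libraries of 1 genotype differed by more than sampling noise, so none was a copy of another. Separate preparations of the same RNA can also differ in this way, so it does not show that they came from different mice. Wilson intervals cover counting error only, since reads without molecular identifiers are not independent molecules.

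Named were the 12 hosts and 12 circles with the most counts, the 4 host sums with the smallest p in each direction, the 3 hosts with the most circles, the 2 circles nearest the limit on each side with at least 30 counts, and up to 4 leading genes per list.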

Additional observations from a re-analysis of the deposited data

How the results depend on the processing

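Under every alternative of the test, scaling, filter and libraries 0 member circles and 0 host sums were called. With a median standard error of 1.33 for a circle and 1.19 for a host sum, these zeros say little about stability. The deviations of same-numbered libraries correlated at -0.05 to 0.08 for circles, 0.02 to 0.13 for host sums and 0.03 to 0.14 for mRNA, not above 0.1 in every pair, and 2, 4 and 5 of 6 libraries correlated best with their own number. The replicate numbers are not treated as pairs, and with a replicate block 0 circles, 0 host sums and 13 host mRNAs were called. Called host mRNAs, 9 in the report, were 33 by DESeq2 (2.96%, beside 2.91% of all genes) and 0 to 8 without 1 library (0 without wild type 2, wild type 3 or knock-in 3, 4 without wild type 1, 5 without knock-in 1). The cause was not tested, and leaving out a library also leaves fewer samples. For the replicate block and the fits without 1 library no share over all genes is given here, so these counts of host mRNAs cannot be set against a background.

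Of the class measures, the knock-in minus wild-type difference in share of circle counts was 0.412 points and became 0.19 with a limit of 400 bases, 0.936 with 600 bases, 0.191 for circles in at least 3 libraries, and 0.272 to 0.501 without 1 library. The difference in circles detected at equal depth, 37.4, became 61.5 with 600 bases, 7.8 for circles in at least 3 libraries and 28.3 to 42.4 without 1 library. The X-linked share, -0.171 points, became -0.372 with 400 bases, -0.0878 with 600 bases and -0.21 to -0.128 without 1 library. The mean length, -1.18 bases, reversed to 0.329 with 600 bases and 0.632 for circles in at least 3 libraries, and was -2.8 to -0.0387 without 1 library. Counts per 1000000 mRNA counts differed by 13.8, and by 6.44 (without wild type 2) to 22.2 (without wild type 1). Scaling to the mRNA moved the median log2 fold change of all 2275 host rows from 0.01 to 0.10.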
